A study of Homo sapiens with 6 samples.

Results

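Iron-sulfur cluster assembly genes are described here as a set of 9, BOLA1, BOLA3, ISCA1, ISCA2, ISCU, NFS1, GLRX5, FDX1 and LYRM4, out of 19876 gene symbols measured by RNA sequencing. They were listed by name for their place in the mitochondrial pathway, and BOLA3 and FDX1 drew attention because both were lower after treatment. The set was thus chosen in part by the measured difference between rhTR11B and PBS libraries, and that difference is given below as a description without a test. All 9 genes were found in the table and passed the filter on low counts, which left 13567 genes to test.

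The cells were A549, an established human lung adenocarcinoma line labelled as wild type. They were grown in a standard serum-supplemented medium with rhTR11B or with phosphate-buffered saline (PBS) as the negative control. TR11B is a short name of TNFRSF11B, the secreted decoy receptor osteoprotegerin, although rhTR11B is not spelled out in the labels, which state neither a dose nor a time. Each group held 3 libraries, labelled biological replicates of a single line. Separate cultures are not mentioned, so a p-value covers only the variation among these 6 libraries, which could be technical.

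Iron-sulfur clusters are small inorganic cofactors that carry electrons or bind substrates in many enzymes. In mitochondria a cysteine desulfurase releases sulfur, a scaffold protein combines it with iron, and a ferredoxin supplies electrons. Chaperones and a glutaredoxin then pass the cluster on, and late-acting factors build larger clusters and hand them to enzymes of respiration and of lipoic acid synthesis. In humans, inherited defects of BOLA3, ISCA1 and ISCA2 cause severe mitochondrial disease in which several such enzymes fail together.

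Library totals ran from 36315751 to 36992958 counts with rhTR11B and from 37203313 to 38148838 counts with PBS. The 13 mitochondrially encoded genes took 7.88% to 10.4% of counts in the rhTR11B libraries and 6.63% to 7.71% in the PBS libraries. The share of 83 ribosomal protein genes was 3.86% to 4.58% with rhTR11B and 5.01% to 5.16% with PBS. On the first principal component, the position was 19.2 for rhTR11B replicate 3, 1.55 and 5.23 for the remaining treated libraries, and between -12.6 and -4.44 for PBS. The part of these shifts in the differences below was not tested. Keratin genes KRT8 and KRT18 averaged 907 and 669 CPM with rhTR11B and 924 and 692 CPM with PBS, where CPM is the count scaled to a common library size with TMM. The epithelial markers EPCAM, CDH1 and KRT19 each averaged under 1 CPM. Of the 10 epithelial and lung markers looked up, only 5 were found in the table, and only KRT8 and KRT18 passed the filter on low counts. The A549 identity is thus taken from the labels. Of 6 fibroblast markers, 5 were measured and summed to 4.29 to 6.46 CPM with rhTR11B and 2.75 to 3.70 CPM with PBS, most of it COL1A1. The 4 endothelial markers measured summed to 0.192 to 0.241 CPM with rhTR11B and 0.157 to 0.416 CPM with PBS. Of the blood markers only LYZ and CD68 were measured, with sums of 3.16 to 4.40 CPM and 2.57 to 3.58 CPM in the rhTR11B and PBS libraries. In bulk RNA, fewer cells of a type and less RNA per cell cannot be told apart.

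The promoters of BOLA3 and FDX1 are shown first, because these genes drew attention and their start regions differ in kind. Each line gives the 250 bases before the transcription start in RefSeq (GRCh38.p14), 5′ to 3′ on the gene's own strand. BOLA3 lies at chr2:74147913-74148162 on the minus strand and FDX1 at chr11:110429698-110429947 on the plus strand, and the RefSeq span of FDX1 begins upstream of this start. Capitals mark matches on either strand to GGGCGG (the GC box bound by SP1), CCAAT (the CCAAT box) and CCGGAAG (an ETS factor site), and the matches shown do not overlap each other. The BOLA3 window also holds the start of BOLA3-DT on the other strand.
BOLA3: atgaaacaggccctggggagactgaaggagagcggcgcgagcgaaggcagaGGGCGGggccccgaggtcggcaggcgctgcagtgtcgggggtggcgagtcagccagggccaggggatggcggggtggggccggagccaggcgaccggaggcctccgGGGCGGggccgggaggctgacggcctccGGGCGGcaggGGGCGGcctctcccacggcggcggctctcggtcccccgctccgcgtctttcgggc
FDX1: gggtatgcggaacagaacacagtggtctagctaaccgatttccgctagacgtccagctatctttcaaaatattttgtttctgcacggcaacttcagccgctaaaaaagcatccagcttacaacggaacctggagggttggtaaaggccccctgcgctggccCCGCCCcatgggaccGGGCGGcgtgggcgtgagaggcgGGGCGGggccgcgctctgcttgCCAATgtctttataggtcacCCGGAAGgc

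The BOLA3 window was 77.6% G and C, higher than 93.8% of 35116 promoter windows of the same length, and the FDX1 window was 58.4%, against a median of 58.0% over all windows. BOLA3 held 4 GC boxes, the nearest ending 50 bases before the start, and no CCAAT box or ETS match. FDX1 held 3 GC boxes, 1 CCAAT box from 29 to 25 bases before the start and 1 ETS match from 9 to 3 bases before it. FDX1 also held TATAAA on one of its strands. Over the whole set, RefSeq had a window for all 9 genes, with a median of 69.2% G and C. GC boxes occurred in 8 of the 9 windows and in 42.6% of all windows, and CCAAT in 5 of 9 and in 32.0%. ETS matches occurred in NFS1 and FDX1, against 8.52% of all windows, and the site of NRF1, a regulator of mitochondrial genes, occurred in ISCU, against 5.07%. TATAAA stood in 2 of 9 windows, BOLA1 and FDX1, against 10.7%. TGACGTCA, the cyclic AMP response element, occurred in ISCU, against 1.65%, and the shorter TGACG that it contains occurred in BOLA3, ISCA1 and ISCU, against 21.2%. Neither arrangement of the heat shock element searched, GAANNTTC or TTCNNGAA, occurred in the 9 windows, against 5.78% and 6.62% of all windows. Both strands were searched for each motif. A match describes letters in a window, and its use in these cells was not measured.

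Levels were compared between genes in FPKM, the deposited values scaled for gene length and library total. The 9 genes spanned a wide range. ISCA1 averaged 24.7 ± 2.99 FPKM, GLRX5 24.0 ± 3.03, BOLA3 23.1 ± 4.05 and NFS1 20.4 ± 1.12 FPKM (SD, n = 6 libraries of both groups). The ranges of these neighbours overlapped, so their order is not settled by these libraries. Below them ISCU averaged 16.0 ± 0.896, ISCA2 7.08 ± 0.569, FDX1 4.50 ± 0.892, LYRM4 2.70 ± 0.321 and BOLA1 0.916 ± 0.247 FPKM, and from NFS1 downward each gene lay above the next in all 6 libraries without overlap. ISCA1 was above 81.9% of the tested genes in mean FPKM, FDX1 above 43.0% and BOLA1 above 19.3%. Thus in FPKM the late-acting BOLA3 was among the higher genes of the set, and its paralog BOLA1 the lowest. For BOLA3 this rested on its short length of 555 bases. In CPM, which is not scaled for length, it averaged 10.9 with rhTR11B and 14.7 with PBS. Only BOLA1 averaged lower, and LYRM4, at 7178 bases, averaged 18.1 and 20.6 CPM. The order in FPKM therefore depends on the lengths used.

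**Figure D1:**
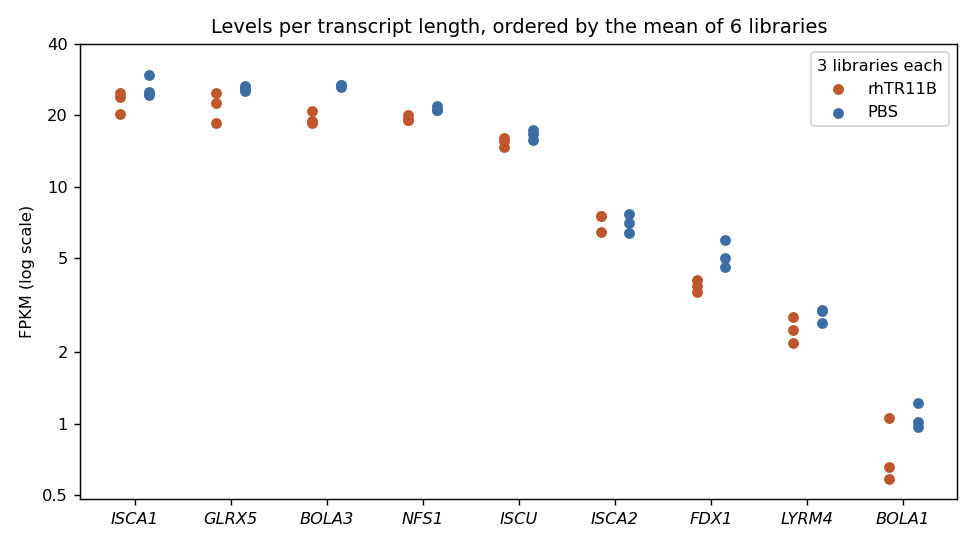
FPKM (log scale) of the 9 assembly genes in the 3 rhTR11B libraries (left of each pair) and the 3 PBS libraries, with genes ordered by their mean over 6 libraries. ISCA1, GLRX5, BOLA3 and NFS1 share the top of the range, and BOLA1 lies lowest with a mean of 0.916 FPKM.

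Of the 9 genes, 8 had a negative log2 fold change of rhTR11B over PBS, and the median was -0.19, against 0.00 and 50.0% negative over all tested genes. The median of the 9 was -0.11 without rhTR11B replicate 3. In 4 genes, BOLA3, FDX1, GLRX5 and NFS1, all 3 rhTR11B libraries lay below all 3 PBS libraries in CPM, a pattern seen in 14% of all tested genes. None of the 9 showed the opposite pattern, which held for 15.1% of tested genes. Since the set was put together with this contrast in view, nothing is read from these counts. Summed over the 9 genes, the rhTR11B libraries held 249.6, 247.9 and 228.6 CPM and the PBS libraries 260.2, 285.0 and 267.1 CPM.

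**Figure D2:**
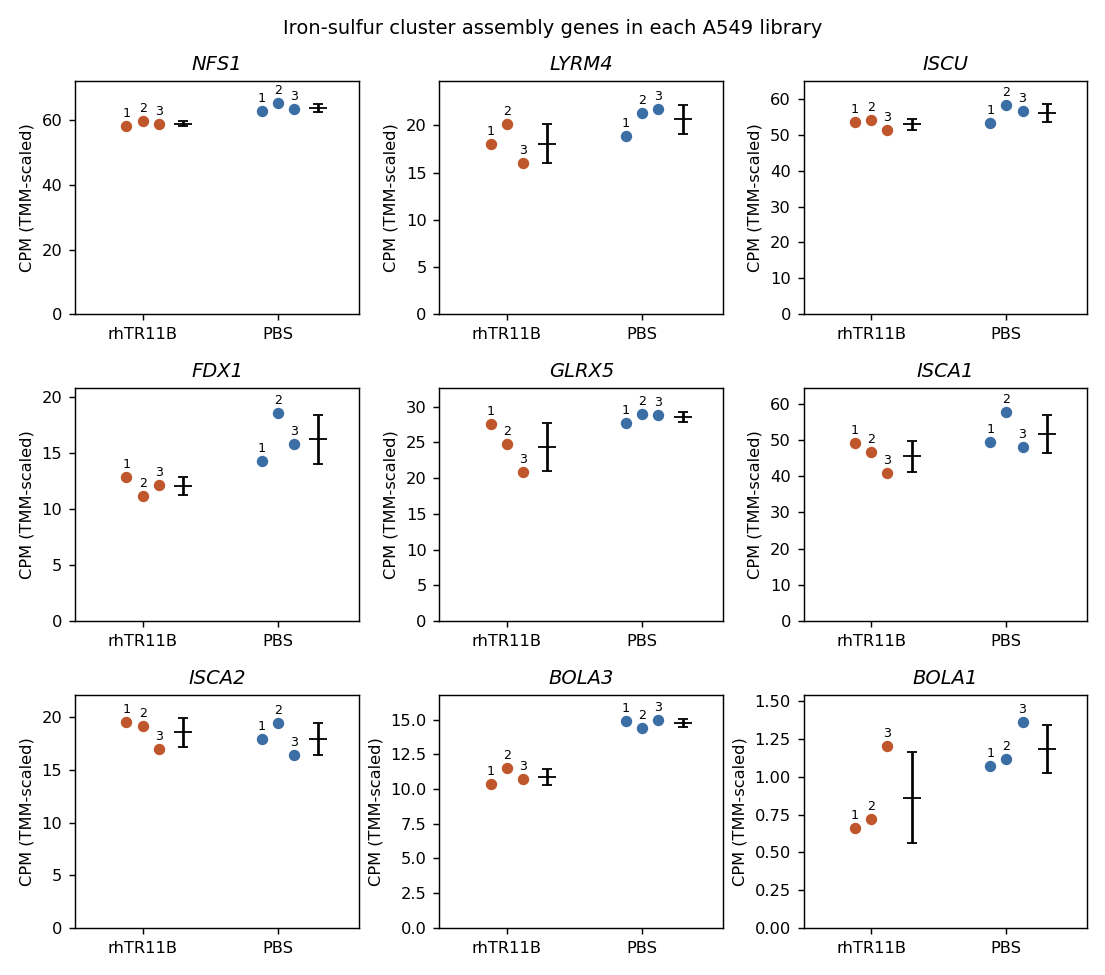
TMM-scaled CPM of each gene by library, with rhTR11B left and PBS right. Numbers are replicate numbers, and the bar beside each group is its mean ± SD (n = 3). The groups are apart for NFS1, FDX1, GLRX5 and BOLA3 and overlap for the other 5 genes.

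NFS1, LYRM4 and ISCU form the core complex where clusters are made. Gene spans below are from RefSeq, GRCh38.p14. NFS1 (chr20:35668052-35699352, minus strand), the cysteine desulfurase that supplies sulfur, had 58.1, 59.7 and 58.7 CPM in the rhTR11B libraries, against 62.9, 65.2 and 63.3 CPM in the PBS libraries. Its groups did not overlap, but the gap was small, with a log2 fold change of -0.12 (SE 0.06). LYRM4 (ISD11, chr6:5031753-5260950, minus strand), the small protein that stabilises NFS1, had 18.03, 20.1 and 16.0 CPM with rhTR11B and 18.9, 21.3 and 21.7 CPM with PBS. Here rhTR11B replicate 2 stood above PBS replicate 1, so the groups overlapped. The log2 fold change of LYRM4 was -0.19 (SE 0.09), and -0.11 without rhTR11B replicate 3. ISCU (chr12:108561463-108569384, plus strand), the scaffold on which the cluster forms, had 53.4, 54.0 and 51.2 CPM with rhTR11B and 53.2, 58.3 and 56.6 CPM with PBS. Its lowest PBS library lay inside the rhTR11B range, and its log2 fold change was -0.08 (SE 0.06). Without PBS replicate 2 it was -0.05. Within a library, NFS1 and ISCU kept nearly the same proportion, at 1.26 ± 0.0343 FPKM of NFS1 per FPKM of ISCU with rhTR11B and 1.29 ± 0.0430 with PBS (SD, n = 3 each).

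FDX1 (chr11:110429331-110464884, plus strand) encodes adrenodoxin, a ferredoxin that carries electrons from ferredoxin reductase to mitochondrial cytochromes P450 and to lipoic acid synthase. It had 467, 417 and 433 counts in the rhTR11B libraries and 534, 714 and 601 counts in the PBS libraries. On the scaled measure these are 12.8, 11.2 and 12.2 CPM with rhTR11B and 14.3, 18.5 and 15.8 CPM with PBS. Every rhTR11B library was lower than every PBS library, and the coefficient of variation was 6.83% with rhTR11B and 13.4% with PBS. The fold was 0.743 (log2 fold change -0.43, SE 0.10). It depended in part on PBS replicate 2, the highest library, without which the log2 fold change was -0.32. FDX2, the paralog that serves cluster assembly most directly in human cells, averaged 14.4 ± 0.865 CPM with rhTR11B and 15.4 ± 0.550 CPM with PBS (log2 fold change -0.09, SE 0.09, edgeR quasi-likelihood adjusted p = 0.555). In FPKM, FDX1 stood at 0.269 ± 0.0167 of the FDX2 level with rhTR11B and 0.340 ± 0.0540 with PBS (SD, n = 3 each).

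GLRX5 (chr14:95535050-95544714, plus strand), the glutaredoxin that receives the new cluster from the scaffold, had 27.6, 24.8 and 20.8 CPM in the rhTR11B libraries and 27.7, 29.02 and 28.9 CPM in the PBS libraries. The 3 PBS libraries lay close together, and rhTR11B replicate 1 stood only just below them. The log2 fold change was -0.23 (SE 0.09), and -0.13 without rhTR11B replicate 3, the library that stood apart on the first principal component.

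ISCA1 and ISCA2 act together in building the larger clusters. ISCA1 (chr9:86264546-86282538, minus strand) had 49.1, 46.7 and 40.8 CPM with rhTR11B and 49.3, 57.7 and 48.1 CPM with PBS, and its groups overlapped. The log2 fold change was -0.18 (SE 0.08). Leaving out PBS replicate 2 gave -0.10, and leaving out rhTR11B replicate 3 gave -0.11. ISCA2 (chr14:74493765-74497106, plus strand) had 19.6, 19.2 and 17.0 CPM with rhTR11B and 17.99, 19.5 and 16.4 CPM with PBS. It was the one gene of the set with a positive log2 fold change, 0.05 (SE 0.09), and this was -0.01 without PBS replicate 3. The partners differed in proportion, with 3.29, 3.19 and 3.15 FPKM of ISCA1 per FPKM of ISCA2 in the rhTR11B libraries and 3.60, 3.88 and 3.85 in the PBS libraries.

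BOLA3 (chr2:74135400-74147912, minus strand) works with GLRX5 and NFU1 in delivering clusters to lipoic acid synthase and respiratory enzymes. It had 377, 430 and 382 counts in the rhTR11B libraries, against 556, 554 and 569 counts in the PBS libraries. As CPM these are 10.3, 11.5 and 10.7 with rhTR11B and 14.9, 14.4 and 14.9 with PBS. All rhTR11B libraries lay below all PBS libraries, and the coefficient of variation was 5.56% with rhTR11B and 2.00% with PBS. The fold was 0.738 (log2 fold change -0.44, SE 0.09). With any of the 6 libraries left out, the log2 fold change of BOLA3 ran from -0.48 to -0.41. BOLA1 (chr1:149899568-149900795, plus strand), which also binds GLRX5, had few reads, with 24, 27 and 43 counts in the rhTR11B libraries and 40, 43 and 52 in the PBS libraries. Its rhTR11B replicate 3 stood above PBS replicates 1 and 2 in CPM, so the groups overlapped, and its log2 fold change of -0.46 had an SE of 0.30. It was -0.77 without rhTR11B replicate 3 and -0.30 without rhTR11B replicate 1.

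**Figure D3:**
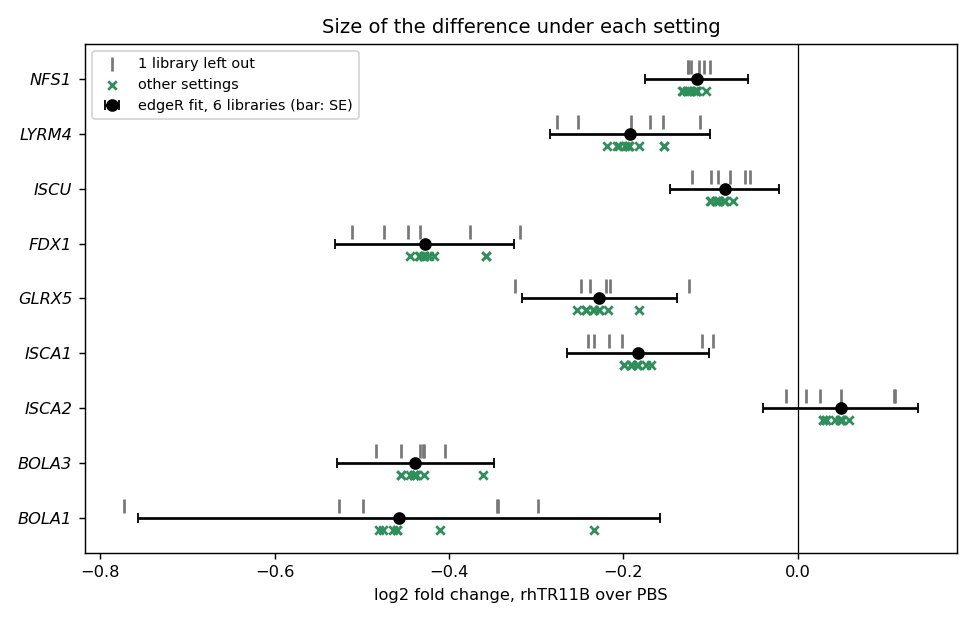
Log2 fold change of rhTR11B over PBS for each gene. Black points and bars are the edgeR estimate ± SE from all 6 libraries, grey ticks are fits with 1 library left out, and green crosses are the other settings. The crosses of BOLA3 run from -0.46 to -0.36 and those of FDX1 from -0.45 to -0.36, while ISCA2 lies around 0.

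Over all tested genes, gene length moved slightly with the differences. The length implied by count and FPKM was 555 bases for BOLA3, 1103 for GLRX5, 1116 for BOLA1 and 1967 for ISCA1. It was 2581 for ISCA2, 3008 for NFS1, 3144 for FDX1, 3401 for ISCU and 7178 for LYRM4. The median was 2581 in the set against 3981 over all tested genes. Within the set, from BOLA3 as the shortest to LYRM4 as the longest, the log2 fold changes were -0.44, -0.23, -0.46, -0.18, 0.05, -0.12, -0.43, -0.08 and -0.19. Among the 724 tested genes under 1000 bases the median log2 fold change was -0.05, and all 3 rhTR11B libraries lay below all PBS libraries in 22.9%. Among the 6749 genes over 4000 bases these values were 0.02 and 10.0%. With a smooth offset for length in each library, the log2 fold change of BOLA3 was -0.36 and that of FDX1 -0.43. GLRX5 then stood at -0.18, and the median of the set was -0.18.

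The reads of some members may not be theirs alone. GENCODE 29 lists 4 pseudogenes named after BOLA3, 5 after ISCA1, 2 after FDX1 and 1 each after ISCA2 and ISCU, and the handling of reads that match both is not given in the sources used here. In RefSeq, LYRM4 overlaps the oppositely transcribed LYRM4-AS1 and, at its start, FARS2, and the 3′ end of BOLA3 overlaps the oppositely transcribed TET3 by 99 bases. Without a stated strand setting, reads from such overlaps cannot be told apart. LYRM4-AS1 had 18, 25 and 13 counts in the rhTR11B libraries and 6, 5 and 10 in the PBS libraries (log2 fold change 1.46, edgeR adjusted p = 0.072). FARS2 stood at -0.03 (adjusted p = 0.917) and TET3 at 0.04 (adjusted p = 0.748).

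Several of the genes start back to back with another gene. By position alone, 6 of the 9 had a gene on the opposite strand starting within 300 bases, and 5 of these neighbours were measured. ROMO1, which encodes a small inner membrane protein and starts 53 bases from NFS1, averaged 48.8 ± 1.76 CPM with rhTR11B and 53.9 ± 4.37 CPM with PBS (SD, n = 3 each). Its log2 fold change was -0.14 (SE 0.07, edgeR adjusted p = 0.211). It was -0.06 with the length offset and -0.10 without PBS replicate 3. BOLA3-DT, a non-coding RNA starting 69 bases from BOLA3, had 61, 73 and 85 counts with rhTR11B and 74, 86 and 93 with PBS. At this depth the groups overlapped (log2 fold change -0.15, SE 0.21, adjusted p = 0.715 with edgeR), and leaving out 1 library gave -0.29 without rhTR11B replicate 3 to -0.03 without rhTR11B replicate 1. SNHG10 beside GLRX5 stood at -0.18 (SE 0.14, adjusted p = 0.457), and SART3 beside ISCU at -0.04 (SE 0.06, adjusted p = 0.674). Without rhTR11B replicate 1 these were -0.27 and -0.03, and SART3 was -0.07 without rhTR11B replicate 3. NPC2, a lysosomal cholesterol carrier that starts 253 bases from ISCA2, was the one neighbour that passed. It rose to 126 ± 15.6 CPM with rhTR11B, against 103 ± 6.66 CPM with PBS (log2 fold change 0.29, SE 0.08, adjusted p = 0.0438). It did not pass without PBS replicate 1, 2 or 3 (adjusted p = 0.0701, 0.214 and 0.166), or without rhTR11B replicate 3 (log2 fold change 0.19, adjusted p = 0.0625). It also missed the threshold with a mean of at least 5 CPM required and with limma-trend on FPKM. Over the alternatives its adjusted p ran from 0.000822 to 0.278.

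**Figure D4:**
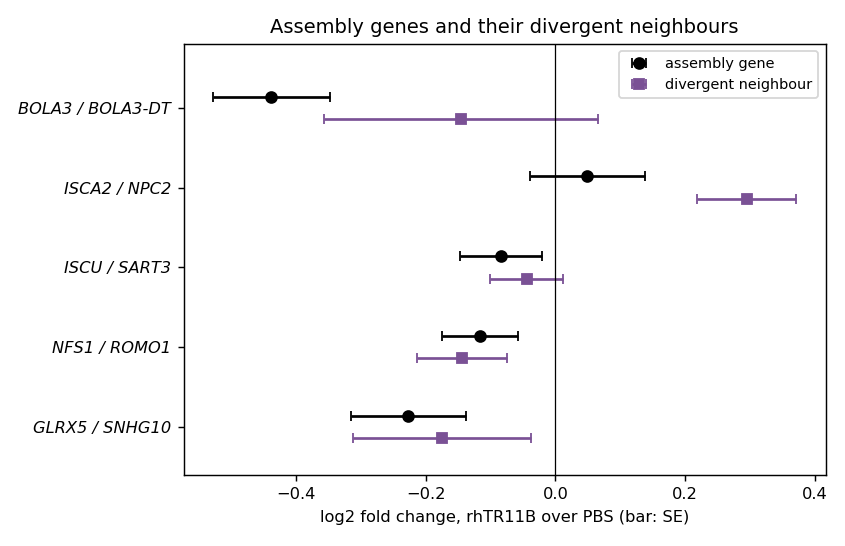
Log2 fold change ± SE (edgeR, 3 libraries a group) of 5 assembly genes (black circles) and of the measured gene that starts within 300 bases on the opposite strand (purple squares). The neighbours of BOLA3, NFS1, ISCU and GLRX5 have negative values, and NPC2 lies at 0.29 while ISCA2 lies at 0.05.

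The wider pathway was taken from 8 lists of other genes of cluster assembly, cluster-containing proteins and iron handling, with 104 tested genes in all. With edgeR's quasi-likelihood test and adjustment over all 13567 genes, 4 of the 104 rose and 0 fell at an adjusted p under 0.05, or 3.85% called against 3.6% of all tested genes. By direction, edgeR called 2.92% of all tested genes as higher and 0.678% as lower. Unadjusted, 7 of the 104 were higher and 18 lower at p under 0.05, together 25 genes, against 24.2% of all tested genes in either direction (13.8% higher and 10.3% lower). DESeq2 called 4 higher and 2 lower of 100 list genes with an adjusted p, against 6.49% and 2.95% of all 11724 genes with one. Of the 104, 73 had a negative log2 fold change, or 70.2% against 50% of all tested genes, with a median of -0.06. In 24 all rhTR11B libraries lay below all PBS libraries, which is 23.1% against 14% of all tested genes. These shares over all tested genes are the background for the counts in each list below. The lists were chosen with earlier results of these data known, so the counts in them are a description.

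The 4 genes that rose were SLC25A37 of the mitochondrial assembly list and HFE, SLC39A14 and SLC11A2 of the iron handling list. SLC25A37 (mitoferrin-1), which carries iron into mitochondria, had 164, 174 and 185 CPM in the rhTR11B libraries and 142, 126 and 133 CPM in the PBS libraries (log2 fold change 0.38, SE 0.06, adjusted p = 0.00556). HFE, a regulator of iron uptake, rose to 55.6 ± 4.85 CPM with rhTR11B, against 44.6 ± 1.57 CPM with PBS (log2 fold change 0.32, adjusted p = 0.0245). The metal importer SLC39A14 (ZIP14) rose to 381 ± 24.7 CPM, against 321 ± 10.8 CPM with PBS (0.25, adjusted p = 0.0365). SLC11A2 (DMT1), the importer of ferrous iron, rose to 128 ± 7.33 CPM, against 109 ± 0.0402 CPM with PBS (0.22, adjusted p = 0.0451; SD, n = 3 a group throughout). For each of the 4 all rhTR11B libraries lay above all PBS libraries. With edgeR, 0 of the 104 genes rose without PBS replicate 2 or without PBS replicate 3, where 4 and 6 were higher at an unadjusted p under 0.05, and 1, SLC25A37, rose without PBS replicate 1. Without rhTR11B replicate 2, 2 rose, with SLC39A14 and SLC11A2 lost (adjusted p = 0.0619 and 0.0577). SLC11A2 was also lost without rhTR11B replicate 3 (adjusted p = 0.0563), and without rhTR11B replicate 1, 5 genes rose and 3 fell. With all 6 libraries, limma-trend on log2(FPKM + 1), after removing genes whose average was below 1 FPKM, kept SLC25A37 and lost HFE, SLC39A14 and SLC11A2 (adjusted p = 0.0710, 0.0862 and 0.0901). SLC11A2 also missed the threshold with library size alone, with the length offset and with a mean of at least 5 CPM required (adjusted p = 0.0576, 0.0647 and 0.0515). Over the alternatives the log2 fold change of SLC25A37 stayed between 0.34 and 0.43, with adjusted p from 1.72e-06 to 0.246.

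In the list of iron uptake, storage and sensing genes the other 10 tested genes did not pass. The ferritin chains FTH1 and FTL, which store iron, stood at 0.05 and -0.12 (adjusted p = 0.712 and 0.317), and the transferrin receptor TFRC at 0.07 (adjusted p = 0.510).

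Of 13 other mitochondrial assembly factors, 11 had a negative log2 fold change with a median of -0.09, and SLC25A37 was the only call. SLC25A28, of the same carrier family, stood at 0.08 (edgeR adjusted p = 0.556), and its groups overlapped. The co-chaperone HSCB, which helps release the cluster from the scaffold, averaged 8.26 ± 0.748 CPM with rhTR11B and 9.94 ± 0.318 CPM with PBS (-0.27, SE 0.11, adjusted p = 0.133). Its partner chaperone HSPA9 stood at -0.14 (adjusted p = 0.183) and the electron donor FDXR at -0.10 (adjusted p = 0.420). NFU1 and IBA57, late factors that act beside BOLA3 and the ISCA proteins, stood at -0.09 and -0.12 (adjusted p = 0.570 and 0.571). In this list 3 of the 13 genes, GFER, HSCB and HSPA9, were lower at an unadjusted p under 0.05 with edgeR, against 10.3% of all tested genes. GFER stood at -0.19 (edgeR adjusted p = 0.119). The DESeq2 calls were 1 higher and 0 lower.

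Most genes of mitochondrial proteins that carry clusters had negative values, without a call in the main edgeR fit. Of 16, 15 had a negative log2 fold change (median -0.09), against 50% of all tested genes. With edgeR 6 were lower at an unadjusted p under 0.05, against 10.3% of all tested genes. The calls were 0 with edgeR and 1, lower, with DESeq2. In 7 of the 16, or 43.8%, the rhTR11B libraries lay below the PBS libraries without overlap, against 14% of all tested genes. By length, that share of all tested genes was 22.9% under 1000 bases and 20.5% from 1000 to 2000. It was 15.9% from 2000 to 4000 bases and 10.0% over 4000, and the 16 genes were not matched for length. The complex I subunit NDUFV2 averaged 72.0 ± 3.49 CPM with rhTR11B and 82.7 ± 2.61 CPM with PBS (-0.20, SE 0.06, adjusted p = 0.0664 with edgeR and 0.0341 with DESeq2). The heme-forming enzyme FECH stood at -0.17 (adjusted p = 0.121), the Rieske protein UQCRFS1 of complex III at -0.18 (adjusted p = 0.125) and NDUFS8 of complex I at -0.13 (adjusted p = 0.197). Without rhTR11B replicate 3, FECH stood at -0.11 and UQCRFS1 at -0.10, and with the length offset NDUFS8 stood at -0.07. Among 12 genes of lipoic acid synthesis and the lipoylated complexes, 10 were negative (median -0.10). Here edgeR called 0 of the 12 and DESeq2 0 of the 11 with an adjusted p. With edgeR 3 were lower at an unadjusted p under 0.05, against 10.3% of all tested genes. GCSH, a lipoylated protein of glycine cleavage, stood at -0.19 (adjusted p = 0.145), and the pyruvate dehydrogenase genes PDHA1 and DLAT at -0.14 and -0.15 (adjusted p = 0.162 and 0.186). DLD, the dehydrogenase that these complexes share, stood at -0.11 (adjusted p = 0.272). DLAT was at -0.08 without rhTR11B replicate 3, and DLD at -0.07 without PBS replicate 2. Lipoic acid synthase itself, LIAS, stood at -0.12 (adjusted p = 0.492).

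Outside mitochondria, 13 tested genes of cytosolic assembly had a median of -0.06, with 10 negative. Here edgeR called 0, with 2 lower at an unadjusted p under 0.05, against 10.3% of all tested genes. By DESeq2, GLRX3 was called lower (adjusted p = 0.0311). GLRX3, a cytosolic glutaredoxin that pairs with BOLA2, averaged 108 ± 5.66 CPM with rhTR11B and 123 ± 2.71 CPM with PBS (-0.19, SE 0.06, edgeR adjusted p = 0.0678). BOLA2 itself did not pass the filter on low counts. BOLA2B, which is among the 13, averaged only 0.541 CPM with rhTR11B and 0.553 CPM with PBS. The electron transfer protein CIAPIN1 stood at -0.16 (adjusted p = 0.101), its reductase NDOR1 at 0.12 (adjusted p = 0.325) and the early scaffold NUBP2 at -0.14 (adjusted p = 0.229). NDOR1 was at 0.05 without rhTR11B replicate 3, and NUBP2 at -0.22 without PBS replicate 2. The 26 tested cytosolic and nuclear cluster proteins had a median of -0.01, with 14 negative. Both tools called 0 of them, with 1 higher and 1 lower at an unadjusted p under 0.05. The ribosome recycling factor ABCE1 stood at -0.20 (adjusted p = 0.0860), the DNA polymerase POLE at 0.14 (adjusted p = 0.151), the DNA glycosylase NTHL1 at -0.16 (adjusted p = 0.209) and DPH2, of diphthamide synthesis, at -0.13 (adjusted p = 0.218). Leaving out rhTR11B replicate 3 gave 0.10 for POLE and -0.08 for DPH2, and leaving out PBS replicate 2 gave -0.12 for ABCE1. Without rhTR11B replicate 1, GLRX3, NDUFV2 and ABCE1 passed as lower (adjusted p = 0.0465, 0.0473 and 0.0488).

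Among the mitochondrial cytochromes P450 that take electrons through ferredoxin, 3 of 6 were measured, and all 3 had positive values. The sterol hydroxylase CYP27A1 averaged 11.6 ± 1.54 CPM with rhTR11B and 9.36 ± 0.797 CPM with PBS (0.31, SE 0.11, adjusted p = 0.0990). The vitamin D enzymes CYP27B1 and CYP24A1 stood at 0.28 and 0.27 (edgeR adjusted p = 0.155 and 0.659), and the groups of each overlapped. CYP24A1 had few reads, with an average of 0.899 CPM with rhTR11B and 0.747 CPM with PBS. With 1 library left out, CYP24A1 ran from 0.08 without PBS replicate 2 to 0.46 without rhTR11B replicate 2, with 0.12 without rhTR11B replicate 1 and 0.41 without PBS replicate 3. By edgeR 0 of the 3 passed, with 2 higher at an unadjusted p under 0.05, and by DESeq2 0 of the 2 with an adjusted p. CYP27A1 passed without rhTR11B replicate 1 (adjusted p = 0.0405) and stood at 0.21 without rhTR11B replicate 3. Of 9 tested relatives of LYRM4 with the LYR motif, 7 were negative with a median of -0.10. SDHAF3, an assembly factor of succinate dehydrogenase, averaged 5.13 ± 0.637 CPM with rhTR11B and 6.65 ± 0.321 CPM with PBS (-0.37, SE 0.13, adjusted p = 0.0937). NDUFA6 and LYRM2 stood at -0.16 each (adjusted p = 0.104 and 0.204) and NDUFB9 at 0.09 (adjusted p = 0.416). LYRM2 was at -0.10 without PBS replicate 2. NDUFB9 was 0.05 when rhTR11B replicate 3 or PBS replicate 2 was omitted, 0.14 when rhTR11B replicate 2 was, and 0.16 with the length offset. In this family edgeR called 0 of 9 and DESeq2 0 of the 8 with an adjusted p. With edgeR 3 were lower at an unadjusted p under 0.05, against 10.3% of all tested genes.

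**Figure D5:**
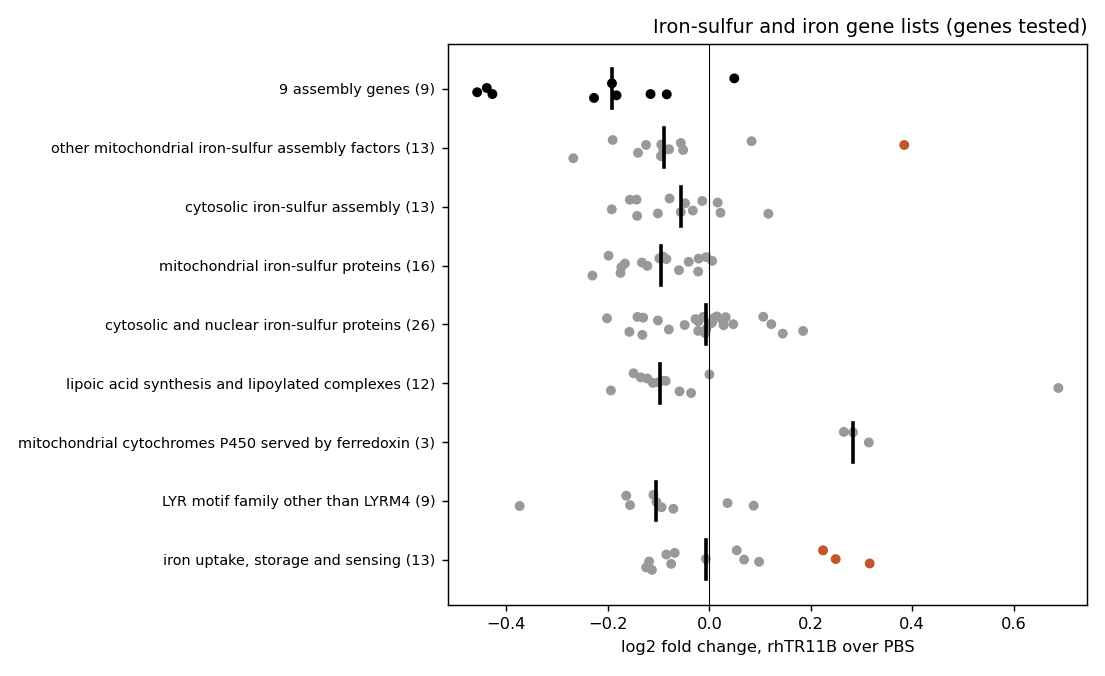
Log2 fold change of rhTR11B over PBS for the 9 assembly genes (black) and for each tested gene of the 8 other lists (grey, or orange where the edgeR adjusted p is under 0.05), with the number tested in brackets and the median as a vertical bar. The 4 orange points, SLC25A37, HFE, SLC39A14 and SLC11A2, lie at 0.22 to 0.38. The grey point farthest right is LIPT2, at under 1 CPM.

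The genes whose pattern over the 6 libraries was most like that of BOLA3 were found among 9400 others with a mean of at least 10 CPM. Likeness was the root-mean-square difference of log2 CPM after centring each gene. HSPA1A, an inducible chaperone, was nearest at 0.0526, followed by its co-chaperone DNAJB1 at 0.0701 and the zinc finger gene ZNF830 at 0.0716. HSPA1A, whose reads may be shared with its near-identical copy HSPA1B, averaged 68.6 ± 1.76 CPM with rhTR11B and 91.4 ± 5.82 CPM with PBS. For FDX1 the nearest were KCTD12 at 0.0964, GNG11 at 0.106 and RRS1 at 0.107. KCTD12 averaged 58.7 ± 4.50 CPM with rhTR11B and 79.7 ± 3.37 CPM with PBS (SD, n = 3 each). All of these share the same libraries, so their likeness is a description of these 6 samples.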

How the data were processed

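The authors deposited read counts and FPKM values per gene symbol for 6 A549 libraries. The submitters' processing notes name fastp, HISAT, HTSeq, R 3.2.0, DESeq2 and build GRCh38. Which tool did which step, the annotation and the strand setting were not given in the sources used here. Each deposited FPKM value equals the count divided by a gene length and the library total (100% of values within a relative tolerance of 0.001), which gave the lengths used.

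The deposited counts were compared in edgeR 4.0.16 (R 4.3.3) with filterByExpr (minimum count 10), TMM, group as the only term, the quasi-likelihood test and Benjamini-Hochberg adjustment over 13567 genes. Log2 fold changes are rhTR11B over PBS, and an SE is the fold change's size divided by the square root of F. The fit was tested on simulated data. Replicates of a group differed by 5.33 to 26.1 times sampling noise (chi-square per degree of freedom), so none was counted as a duplicate. The common biological coefficient of variation was 0.0656.

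The members and lists were chosen with earlier results of these data known. Named were all 9 members, every called gene of each of the 8 lists or otherwise up to 4 with the smallest p, and the 3 genes nearest to BOLA3 and to FDX1. HSCB, HSPA9, GFER, SLC25A28, FDX2, FDXR, NFU1, IBA57, LIAS, LIPT2, BOLA2, BOLA2B, FTH1, FTL, TFRC and the neighbouring genes were added for their role, position or value once values had been seen. Alternatives were DESeq2 1.42.0 (size factors or Wald test), library size alone, other filters, a replicate block, limma-trend (limma 3.58.1) on log2(FPKM + 1) and log2(FPKM + 0.1), a length offset, an adjusted p under 0.1 and leaving out each library.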

Additional observations from a re-analysis of the deposited data

How the results depend on the processing

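Across all settings run, 8 of 9 members had a negative log2 fold change, except that all 9 did without PBS replicate 3 and that 7 of 8 did where a filter removed BOLA1. The members' median ran from -0.25 to -0.11 with 1 library left out. By CPM instead of FPKM, 3 of 9 members kept their place in the order of levels, and BOLA3 fell below every member but BOLA1. BOLA3 moved by more than the spread between replicates with the length offset, at -0.36, and no other member did under any setting.

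Counts of calls were far less stable than these values. Over all genes, 396 were higher and 92 lower. With 1 library left out the higher calls ran from 9 to 903 and the lower from 3 to 427, lowest without PBS replicate 3 and highest without rhTR11B replicate 1. There were 761 and 346 with the DESeq2 Wald test, 940 and 483 with no low-count filter, 205 and 26 at a mean of at least 5 CPM, and 1056 and 556 at an adjusted p under 0.1. With limma-trend there were 62 and 21 on log2(FPKM + 1), 64 and 22 on log2(FPKM + 0.1), and 0 and 0 without a filter, where 3073 genes had an unadjusted p under 0.05. In the 8 lists the 4 higher calls became 1 under each filtered limma-trend setting and 0 without a filter, and 0 to 5 with 1 library left out. The 0 lower calls became 2 with DESeq2, 3 without a low-count filter, 4 at an adjusted p under 0.1, and 0 to 3 with 1 library left out. With the replicate block there were 774 higher and 252 lower calls, and the lists' calls stayed at 4 and 0. Same-numbered libraries did not deviate together (correlations -0.105, 0.051 and -0.007), nor did each library correlate best with its own number. With 3 libraries a group, such correlations cannot settle whether same-numbered samples shared a culture or batch. The labels give only a replicate number. The cause of these shifts was not tested. Depth limits BOLA1, BOLA2B, BOLA3-DT, CYP24A1 and LYRM4-AS1.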
